A study of Mus musculus with 12 samples.

Results

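The 10 genes of hepcidin and iron handling described here, of 57180 genes in the deposited table, were followed in the livers of 12 mice. They were taken by gene name, and are the hepcidin genes Hamp and Hamp2, the ligand Bmp6 and its target Id1, the transferrin receptor Tfrc, transferrin (Trf), the ferritin chains Fth1 and Ftl1, the iron exporter ferroportin (Slc40a1) and the heme-binding plasma protein hemopexin (Hpx). All 10 had enough reads to be tested, among 19355 genes in all. Each genotype, Het and KO, was represented by 3 females and 3 males. All 12 mice lacked Csa, the mouse counterpart of a Cockayne syndrome gene, and all had received AAV9-CSA by injection into the cerebral ventricles within a day of birth. That vector carries a human CSA cDNA behind a chicken β-actin promoter. The KO mice are the CX mice of the study, taken when they reached a humane endpoint, and the Het mice are AAV-treated littermates of matched age. Terminal illness and genotype therefore cannot be told apart in these livers. The methods write the KO genotype as Csa-/- Xpa+/+ and the Het genotype as Csa-/- Xpa+/-, whereas the study elsewhere describes CX mice as lacking Xpa as well. The strain of these mice and the age of each are not given in the sources used here.

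Libraries were made from total RNA after removal of ribosomal RNA, and the gene counts of a liver summed to between 30044812 and 43634073. Levels are given as CPM, counts scaled to the size of each library as corrected by its TMM factor, unless stated. Single livers are named by genotype, sex and mouse number. Xpa, looked at first because of the conflict over genotype, lay between 3.13 and 6.32 CPM in the 6 Het livers and between 0.990 and 1.82 CPM in the 6 KO livers. Its level was thus lower in every KO liver, with a log2 fold change of −1.84 (SE 0.16, adjusted p = 3.7e-05 by the quasi-likelihood F test of edgeR, adjusted after Benjamini and Hochberg), and KO_F_112 was the highest of the KO livers. All adjusted p-values below come from that test, with adjustment over the 19355 genes, and a gene is said to have risen or fallen only where its adjusted p was under 0.05. Every one of the 8 hepatocyte markers examined was detected, and the summed level of these markers ranged from 67027 to 90907 CPM in the Het livers and from 84024 to 143178 CPM in the KO livers, with KO_F_112 the highest. Most of that sum is Alb, the gene of serum albumin, at 108214 CPM in KO_F_112, and without Alb the ranges were 27276 to 32714 CPM and 29309 to 34964 CPM. None of the 8 markers rose and Ttr, the gene of transthyretin, fell (−0.82, adjusted p = 0.0038). Because these are bulk samples, fewer cells of a type and less RNA per cell cannot be told apart.

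Hepcidin is a small peptide hormone secreted by hepatocytes. It binds ferroportin, the only known exporter of cellular iron, and leads to its degradation, so that high hepcidin keeps iron inside macrophages, enterocytes and hepatocytes. Its gene is driven by at least a pair of signals. One comes from iron stores, through BMP6 and BMP2 of the liver sinusoidal endothelium, the co-receptor hemojuvelin and SMAD proteins, and the other comes from inflammation, through IL6 and STAT3. Iron inside cells is controlled after transcription as well, since iron regulatory proteins bind a hairpin in the mRNA, the iron responsive element, and by doing so block translation where it lies in the 5′ untranslated region or stabilize the mRNA where it lies in the 3′ untranslated region. The mouse carries a second hepcidin gene, Hamp2, whose peptide is not known to have the same action on iron.

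Hamp and Hamp2 lie next to each other on the reverse strand of chromosome 7, Hamp at chr7:30641766-30643990 and Hamp2 at chr7:30621797-30624106 (GRCm39). Their coding sequences, 252 bases each with the stop codon, were identical at 236 positions (93.7%). The ends of the coding sequences, which encode the mature peptides, are shown because 14 of the 16 differences fall within these last 78 bases. Capitals mark the positions at which the genes differ.
Hamp chr7:30641902-30641979: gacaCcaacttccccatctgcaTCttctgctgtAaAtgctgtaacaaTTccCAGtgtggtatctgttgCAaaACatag
Hamp2 chr7:30621933-30622010: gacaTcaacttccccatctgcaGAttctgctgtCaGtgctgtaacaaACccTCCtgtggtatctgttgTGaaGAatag
Of the stretches of 31 bases in the Hamp2 transcript, 31.4% also occur in the Hamp transcript, so the split of reads between the genes is partly an estimate, and a fit to their summed counts was made beside the separate ones.

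The promoters of the pair are shown because they bear on both signals. They come from RefSeq on GRCm38.p6 and run from 250 bases before the start of transcription to 50 bases after it. Searched for on both strands were GGCGCC, the core of a BMP-responsive element that SMAD proteins bind, TTCNNNGAA, the form of a STAT site, and CACGTG, an E-box. These motifs do not overlap each other in the stretches shown, and their matches are in capitals.
Hamp chr7:30943980-30944279, reverse strand: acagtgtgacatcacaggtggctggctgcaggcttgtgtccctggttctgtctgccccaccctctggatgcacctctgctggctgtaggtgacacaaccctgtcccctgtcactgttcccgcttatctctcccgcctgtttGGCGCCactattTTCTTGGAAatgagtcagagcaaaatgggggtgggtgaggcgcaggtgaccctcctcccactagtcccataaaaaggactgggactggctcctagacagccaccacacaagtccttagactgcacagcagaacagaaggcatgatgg
Hamp2 chr7:30924132-30924431, reverse strand: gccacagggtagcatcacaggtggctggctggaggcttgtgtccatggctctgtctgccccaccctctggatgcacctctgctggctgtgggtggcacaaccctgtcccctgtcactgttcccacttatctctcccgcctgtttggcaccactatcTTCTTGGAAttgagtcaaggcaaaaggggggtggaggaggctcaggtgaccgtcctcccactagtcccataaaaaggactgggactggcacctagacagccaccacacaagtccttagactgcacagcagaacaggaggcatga
The stretches were identical at 276 of 297 aligned positions (92.9%). Hamp held GGCGCC 109 bases before the start and TTCTTGGAA 97 bases before it. Hamp2 held TTCTTGGAA 94 bases before its start and no match to GGCGCC, and neither held CACGTG. Of all 32851 promoters of this length in the table, 11.9% hold GGCGCC, 8.3% hold TTCNNNGAA and 7.15% hold CACGTG. The table has promoters for 7 of the 10 genes.

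Hamp, the hormone itself, did not pass the test between genotypes. Its levels in the Het females were 308, 316 and 337 CPM, and in the Het males 238, 377 and 192 CPM. In the KO females they were 348, 214 and 322 CPM, and in the KO males 164, 97.7 and 208 CPM. The lowest levels of the 12 livers were those of 2 KO males, KO_M_122 (97.7 CPM) and KO_M_118 (164 CPM), yet the genotypes overlapped in either sex. The log2 fold change over both sexes was −0.45 (95% interval −0.90 to 0.00, unadjusted p = 0.051, adjusted p = 0.14). It was −0.12 in females (interval −0.76 to 0.52, adjusted p = 0.82) and −0.78 in males (interval −1.42 to −0.14, unadjusted p = 0.022, adjusted p = 0.13). The difference between the sexes in this effect was −0.66 (interval −1.56 to 0.25, adjusted p = 0.64). Between the sexes, over both genotypes, Hamp differed by −0.58 in males (interval −1.04 to −0.13, unadjusted p = 0.016, adjusted p = 0.23). By means the groups ran from Het females (321 ± 14.6 CPM, SD, n = 3) through KO females (295 ± 71.1 CPM) and Het males (269 ± 96.0 CPM) to KO males (157 ± 55.5 CPM), and the ranges of every pair of neighbours in that order overlapped.

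**Figure D1:**
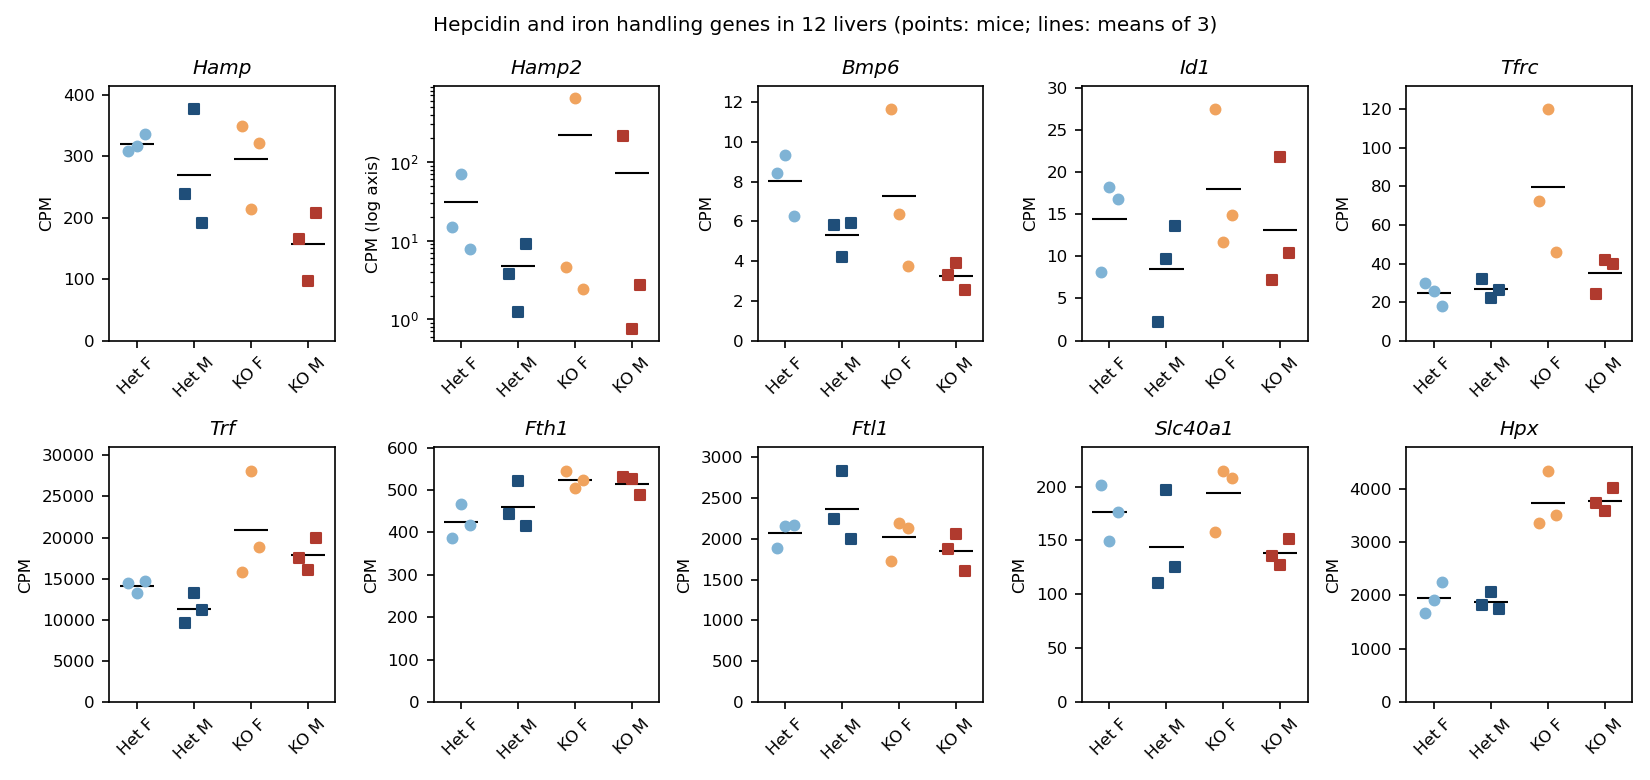
Level of each of the 10 genes in CPM in the 12 livers (log axis for Hamp2 only), with circles for females, squares for males and a line at the mean of the 3 mice of each group. In CPM, Hpx and Trf of all KO livers sit above those of all Het livers (for Trf the genotypes overlap in TPM), and Hamp2 stands out in KO_F_112 (658 CPM) and KO_M_118 (214 CPM).

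Hamp2 did not pass the test between genotypes, and single mice decided its values. It measured 14.9, 70.9 and 7.79 CPM in the Het females, and 3.76, 1.24 and 9.13 CPM in the Het males. It measured 4.56, 658 and 2.41 CPM in the KO females, and 214, 0.753 and 2.696 CPM in the KO males. Only KO_F_112, KO_M_118 and Het_F_115 exceeded 15 CPM, while the other 4 KO livers lay at or below 4.56 CPM. Counts of Hamp2 rested on 21345 reads in KO_F_112 and 9503 in KO_M_118, against 26 in KO_M_122. The log2 fold change was 3.38 (interval −0.30 to 7.05, adjusted p = 0.17), and without KO_F_112 it was 0.40. Within females it was 2.83 with that liver and −3.13 without it, and within males it was 3.93 with KO_M_118 and −1.42 without it. No direction can therefore be given.

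Hamp2 made up 75.5% of the summed counts of the pair in KO_F_112, 56.5% in KO_M_118 and 18.3% in Het_F_115. In the other 9 livers its share was between 0.329% and 4.60%. Both livers in which Hamp2 exceeded Hamp had less Hamp than the median Het liver (312 CPM), at 214 and 164 CPM. Their sums, 872 and 378 CPM, were the highest and, after Het_F_115, the next highest but one of the 12. The KO males without high Hamp2 had sums of 98.5 and 211 CPM. The summed counts gave a log2 fold change of 0.15 (interval −0.60 to 0.90, adjusted p = 0.79), and its sign changed without KO_F_112 (−0.15) or without KO_M_118 (−0.13).

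**Figure D2:**
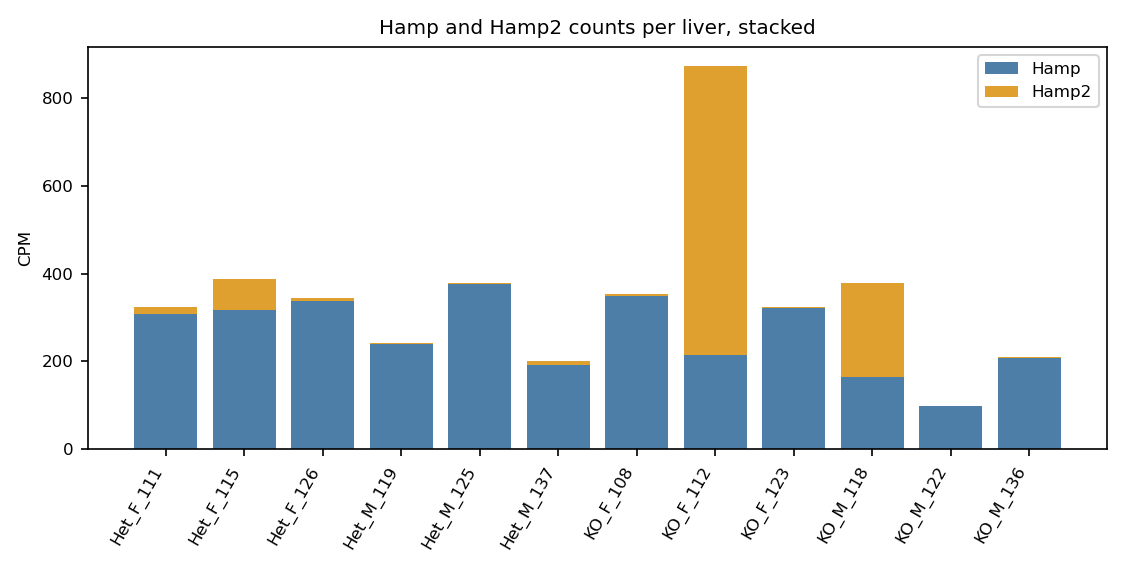
Stacked bars of Hamp (blue) and Hamp2 (yellow) in CPM for each of the 12 livers, the bar height being their sum. Hamp2 takes 75.5% of the bar in KO_F_112 and 56.5% in KO_M_118, and KO_M_122 has the lowest sum at 98.5 CPM.

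Bmp6, the iron-responsive ligand that drives hepcidin, and Id1, a transcriptional target of the same pathway, did not pass the test either. Bmp6 measured 8.45, 9.36 and 6.25 CPM in the Het females, and 5.82, 4.21 and 5.90 CPM in the Het males. It measured 11.6, 6.35 and 3.77 CPM in the KO females, and 3.31, 3.91 and 2.52 CPM in the KO males. All 3 KO males lay below all 3 Het males, whereas in females KO_F_108 was the highest of all 12 livers. The log2 fold change was −0.42 (interval −0.95 to 0.10, adjusted p = 0.23) over both sexes, −0.14 in females (adjusted p = 0.81) and −0.70 in males (interval −1.45 to 0.05, adjusted p = 0.24). Without KO_F_108 the value over both sexes was −0.68 (adjusted p = 0.031), so that 1 liver decided the call. Bmp6 was also the member with the smallest p between the sexes, at −0.87 in males (interval −1.39 to −0.34, unadjusted p = 0.0037, adjusted p = 0.13). That difference passed the threshold without KO_F_123 (−1.02, adjusted p = 0.030).

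Id1 varied widely within groups. Its range was 2.19 to 18.2 CPM in the Het livers (median 11.6 CPM) and 7.20 to 27.4 CPM in the KO livers (median 13.3 CPM), with overlap in both sexes. The log2 fold change was 0.47 (interval −0.51 to 1.46, adjusted p = 0.48), an interval that includes both a fall and a more than doubled level.

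The remaining genes of the BMP and SMAD input moved in both directions. Of 30 genes listed for this pathway 29 were tested, and 7 rose while 3 fell over both sexes, with a median log2 fold change of −0.09. Over all 19355 genes 22.6% were called, 11.9% higher and 10.7% lower, and the median was 0.01. Hjv, which encodes the BMP co-receptor hemojuvelin, ranged from 25.9 to 36.8 CPM in the Het livers and from 39.2 to 62.1 CPM in the KO livers. Every KO liver was above every Het liver, and Hjv rose by a log2 fold change of 0.71 (SE 0.12, adjusted p = 0.0019). It rose in females (0.60, adjusted p = 0.040) and in males (0.82, adjusted p = 0.015). Tfr2, the hepatocyte transferrin receptor that senses iron-loaded transferrin, rose by 0.44 (adjusted p = 0.031), a call that was lost when any of 7 single livers was left out (0.39 at the lowest, adjusted p up to 0.073). Fgl1, a hepatocyte-secreted protein known to bind BMP ligands and so to lower their signal, rose by 1.77 (SE 0.32, adjusted p = 0.0036), from 38.9 to 317 CPM in Het livers to 391 to 678 CPM in KO livers with no overlap. Acvr2a, an activin and BMP receptor, fell by 0.44 on the log2 scale (adjusted p = 0.012), but did not pass with length-scaled counts (adjusted p = 0.18).

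The other regulators named by rule did not pass or were borderline. Hfe, the partner of TFR2, differed by 0.23 (interval 0.01 to 0.44, adjusted p = 0.12), and passed with length-scaled counts (adjusted p = 0.044). Tmprss6, the protease that cleaves hemojuvelin, differed by −0.14 (interval −0.40 to 0.11, adjusted p = 0.40). Bmp2, the other endothelial ligand, differed by −0.69 (interval −1.21 to −0.17, adjusted p = 0.057), and passed with DESeq2 on all livers (adjusted p = 0.027), without KO_F_108 (adjusted p = 0.037) or without KO_M_122 (adjusted p = 0.016). Of the pathway's target genes, Smad6 (−0.10), Smad7 (0.17), Id2 (−0.40) and Id3 (−0.17) had adjusted p-values between 0.48 and 0.76. Atoh8, another target, rose by 0.79 (adjusted p = 0.032), with 81.0 CPM in KO_F_108 and 52.7 CPM in KO_F_112 against at most 26.5 CPM in any other liver, and the call was lost when any of 8 single livers was left out. Erfe, an erythroblast hormone that lowers hepcidin, had too few reads to be tested, at 0 CPM in the 6 Het livers and at most 0.107 CPM in a KO liver. With no filter on low counts it was called, at 0.93 (adjusted p = 0.022), on these few reads. Of 8 sinusoidal endothelial markers 5 fell and none rose, 62.5% against 22.6% of all genes. The summed levels overlapped, at 237 to 447 CPM in the Het livers and 177 to 295 CPM in the KO livers. The part of endothelial cells in the values of Bmp2 and Bmp6 was not tested.

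Genes of the inflammatory input rose in larger number than they fell. Of 18 genes listed for IL6 and STAT3, all tested, 7 rose and 2 fell, 50% against 22.6% of all genes, with a median of 0.47. Stat3, the transcription factor of this input, ranged from 93.0 to 111.2 CPM in the Het livers and from 162 to 307 CPM in the KO livers. All KO livers were above all Het livers, with a log2 fold change of 1.03 (SE 0.14, adjusted p = 6.2e-04). Socs3, its feedback inhibitor, rose by 1.63 (SE 0.42, adjusted p = 0.022), a call lost in a model without interaction (adjusted p = 0.15), with no filter on low counts (adjusted p = 0.053) and without Het_M_125 (adjusted p = 0.051). In females Socs3 went from 2.59 to 8.91 CPM to 44.1 to 97.2 CPM, whereas in males it was 8.25 to 41.8 CPM and 17.6 to 25.6 CPM, and the test of the difference between the sexes gave an adjusted p of 0.32. The acute-phase genes Orm2 (3.46, adjusted p = 5.4e-05) and Lcn2, which encodes a siderophore-binding protein (4.66, adjusted p = 2.9e-04), rose in both sexes. Lcn2 ranged from 0.951 to 21.0 CPM in the Het livers and from 91.7 to 192 CPM in the KO livers. Saa1, another acute-phase gene, differed by 0.75 (interval −0.05 to 1.56, adjusted p = 0.16), and passed with length-scaled counts (1.04, adjusted p = 0.019). Cebpa, a hepatocyte transcription factor also needed for basal hepcidin transcription, fell by 1.11 on the log2 scale (SE 0.15, adjusted p = 5.3e-04), from 166 to 343 CPM to 78.4 to 162 CPM with no overlap.

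**Figure D3:**
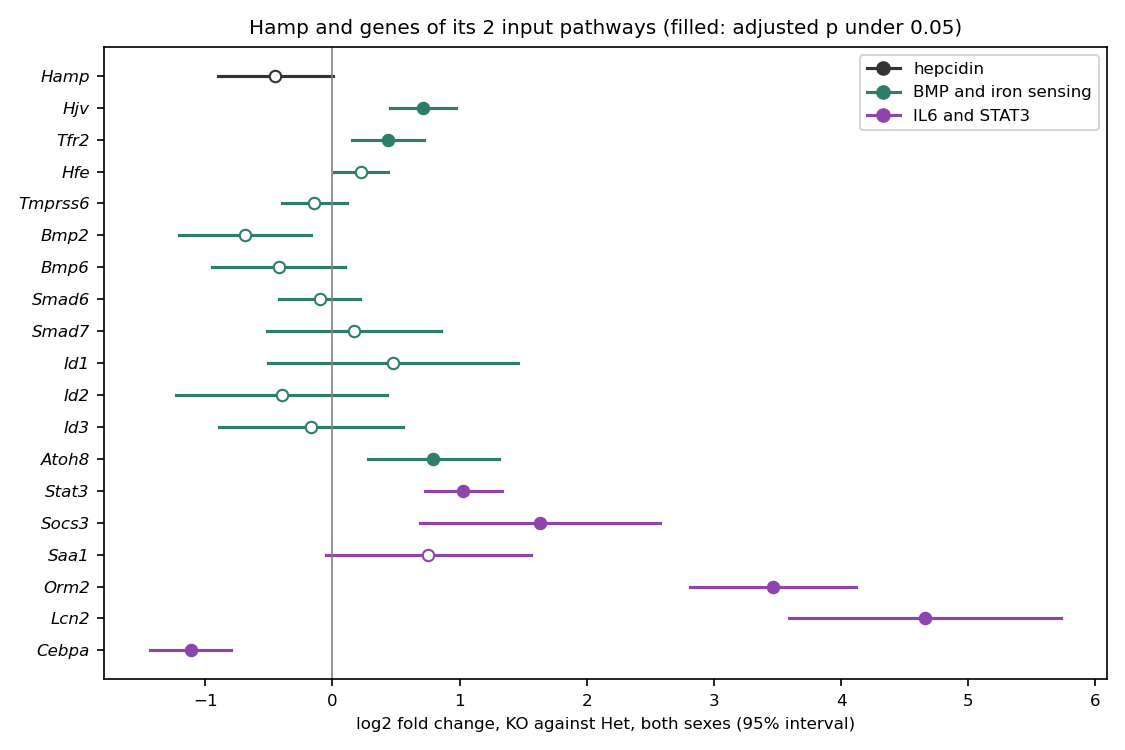
Log2 fold change of KO against Het over both sexes (x axis) with its 95% interval for Hamp, 12 genes of the BMP and iron sensing input and 6 genes of the IL6 and STAT3 input, filled where the adjusted p was under 0.05. Hamp sits at −0.45, left of Stat3 (1.03), Socs3 (1.63), Orm2 (3.46) and Lcn2 (4.66), and right of Cebpa, which fell. Orm2, Lcn2 and Cebpa are plotted as the called genes of smallest p among the 18 listed for that input.

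The 3 members that rose are Hpx, Tfrc and Trf, and none fell. That is 3 of 10, against 22.6% of all genes called in either direction and 11.9% called higher. Hpx, which carries free heme to hepatocytes, had the smallest p of the members. It measured 1668, 1920 and 2250 CPM in the Het females, and 1822, 2057 and 1740 CPM in the Het males. It measured 3349, 4336 and 3496 CPM in the KO females, and 3733, 3574 and 4010 CPM in the KO males. Every KO liver was above every Het liver, which held in CPM for Hpx and Trf among the members and for 4.57% of all tested genes. The fold change was 1.96 (interval 1.64 to 2.35), or 0.97 on the log2 scale (SE 0.12, adjusted p = 3.7e-04). It was 0.94 in females (adjusted p = 0.0081) and 1.01 in males (adjusted p = 0.0052), and the difference between these was 0.07 (interval −0.44 to 0.59).

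Tfrc encodes the receptor by which cells take up transferrin-bound iron. It measured 30.04, 25.5 and 17.9 CPM in the Het females, and 32.0, 22.2 and 26.2 CPM in the Het males. It measured 72.6, 120 and 45.8 CPM in the KO females, and 24.2, 41.9 and 39.6 CPM in the KO males. The genotypes separated in females, and in males KO_M_118 lay inside the Het range. Over both sexes Tfrc was 2.06-fold higher in KO livers (interval 1.44 to 2.96, adjusted p = 0.010). In females, where 11.3% of all genes were called, the log2 fold change was 1.70 (SE 0.34, adjusted p = 0.014), and in males, where 7.49% were called, it was 0.39 (interval −0.33 to 1.12, adjusted p = 0.51). The difference between the sexes was −1.30 (interval −2.34 to −0.27, unadjusted p = 0.018) and did not hold after adjustment (adjusted p = 0.47).

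Trf, the plasma iron carrier made by hepatocytes, was the most abundant member. It measured 14443, 13314 and 14673 CPM in the Het females, and 9566, 13203 and 11169 CPM in the Het males. It measured 15804, 28137 and 18859 CPM in the KO females, and 17513, 16117 and 19930 CPM in the KO males. Each KO liver was above each Het liver in CPM, by a margin of 15804 against 14673 CPM at the nearest, but in TPM, defined below, the lowest KO liver (6765) lay under the highest Het liver (6791). Trf was 1.53-fold higher in KO livers (interval 1.199 to 1.95, adjusted p = 0.019), with log2 values in females (0.57, adjusted p = 0.12) and males (0.66, adjusted p = 0.10) that did not pass within either sex. KO_F_112, the liver with the highest Alb, was also the highest for Trf, and leaving it out gave a log2 fold change of 0.49. The adjusted p was at most 0.048 whichever liver was left out. Without robust estimation of the spread the call was lost (adjusted p = 0.084).

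Fth1, Ftl1 and Slc40a1, for storage and export, did not pass the test. Fth1, the ferritin heavy chain, ranged from 386 to 521 CPM in the Het livers (median 430 CPM) and from 488 to 546 CPM in the KO livers (median 525 CPM). Its log2 fold change was 0.24 (interval 0.03 to 0.44, adjusted p = 0.092). In females the genotypes did not overlap in CPM (0.31, adjusted p = 0.15). In TPM they did overlap in females, with KO_F_112 (465 TPM) under Het_F_115 (503 TPM). Males separated in TPM only, at 395 to 435 TPM in the Het and 519 to 548 TPM in the KO livers. Over both sexes DESeq2 called Fth1 with nearly the same value (0.24, adjusted p = 0.025), as did length-scaled counts (0.33, adjusted p = 0.030). Ftl1, the light chain, ranged from 1892 to 2835 CPM in the Het livers and from 1609 to 2189 CPM in the KO livers, with a log2 fold change of −0.19 (interval −0.47 to 0.08, adjusted p = 0.29). Slc40a1 ranged from 110.9 to 202 CPM in the Het livers and from 127 to 215 CPM in the KO livers, with a log2 fold change of 0.04 (interval −0.29 to 0.36, adjusted p = 0.89). Both ferritin genes have processed copies elsewhere in the genome, so their counts are less certain than those of single-copy genes.

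**Figure D4:**
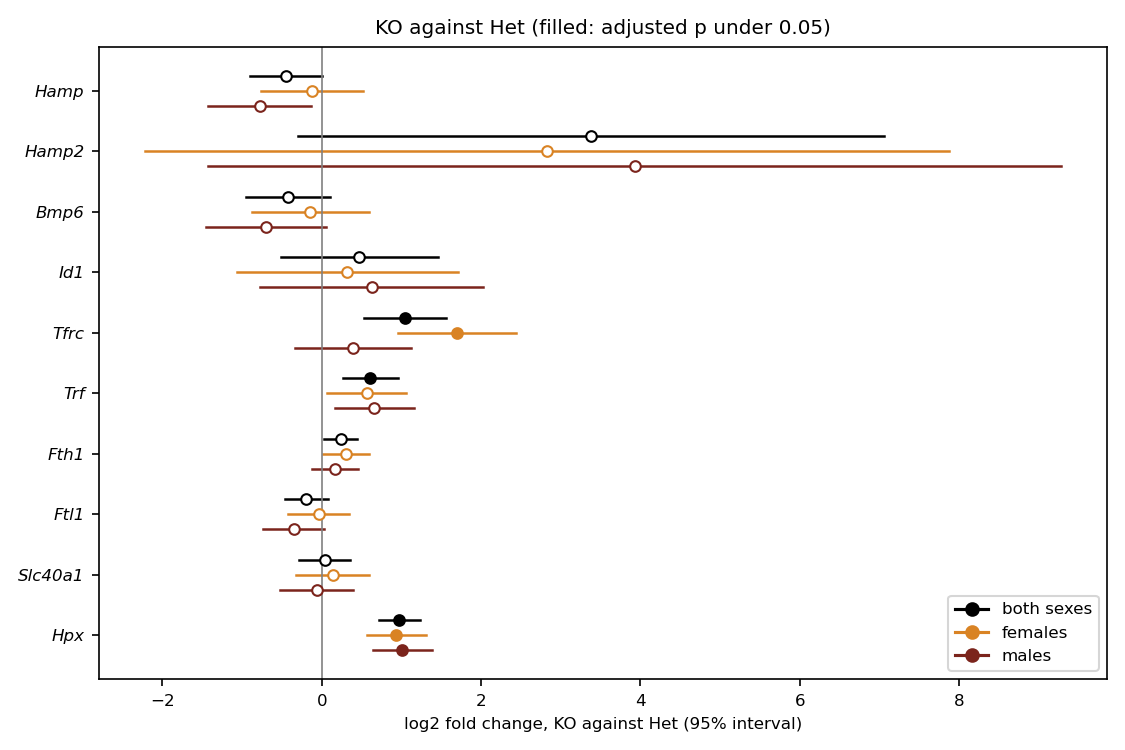
Log2 fold change of KO against Het (x axis) with its 95% interval for each of the 10 genes, over both sexes (black), in females (orange) and in males (dark red), filled where the adjusted p was under 0.05. Hpx is filled in all 3 comparisons, Tfrc over both sexes and in females, and Trf over both sexes.

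Per transcript length, which allows genes to be compared, Trf was again first, with a median of 5519 TPM (abundance per transcript length, scaled to one total in every library) in the Het livers and 7860 TPM in the KO livers. Ftl1 (1900 and 1727 TPM), Hpx (980 and 2009 TPM), Hamp (917 and 562 TPM) and Fth1 (415 and 541 TPM) followed. Hpx was thus below Ftl1 in the Het livers and above it in the KO livers by these medians. Slc40a1 was at 39.6 and 38.3 TPM, Id1 at 9.79 and 11.5 TPM, Tfrc at 5.47 and 11.4 TPM and Bmp6 at 1.55 and 0.862 TPM. Hamp2 had medians of 22.8 and 10.3 TPM, but reached 1613 TPM in KO_F_112, above the 545 TPM of Hamp in that liver. Between 50.04% and 59.9% of each liver's TPM went to the 3 small RNA genes Rn7s1, Rn7s2 and Rn7sk, so TPM values of the other genes are lowered by that much.

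Of the 10 mRNAs 4 held a match to the iron responsive element, shown here because ferritin, ferroportin and the receptor respond to cellular iron through it. The shape searched for on the mRNA strand was an unpaired C, 5 bases, the loop CAGTGN, and 5 bases that pair with the first 5, allowing G to pair with T. The loop is in capitals, in 29 bases of GRCm39 on the mRNA strand.
Tfrc site 1, chr16:32450037-32450065: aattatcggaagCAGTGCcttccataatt
Tfrc site 2, chr16:32450416-32450444: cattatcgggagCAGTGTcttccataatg
Tfrc site 3, chr16:32450481-32450509: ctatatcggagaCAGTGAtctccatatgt
Tfrc site 4, chr16:32450528-32450556: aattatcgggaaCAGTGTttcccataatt
Fth1, chr19:9960096-9960124: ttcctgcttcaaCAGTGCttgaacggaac
Ftl1, chr7:45109203-45109231: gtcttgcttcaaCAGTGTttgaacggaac
Slc40a1, chr1:45964625-45964653: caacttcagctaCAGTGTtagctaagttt
All 4 matches of Tfrc are in its 3′ untranslated region, and the single matches of Fth1, Ftl1 and Slc40a1 are in the 5′ untranslated region. Of 22263 coding transcripts searched, 1 for each gene, 0.561% held a match in the 3′ and 0.108% in the 5′ untranslated region. Tfrc, with its 3′ matches, rose 2.06-fold in mRNA over both sexes, with log2 values of 1.70 in females and 0.39, not called, in males. The 3 members with a 5′ match had mRNA log2 fold changes of 0.24, −0.19 and 0.04 that did not pass the test. The part of the elements in these values was not tested. Of the other listed iron genes only Alas2 held a match to this shape, in its 5′ untranslated region, and its mRNA fell, as given below. Elements of another shape, or in another transcript of a gene, would be missed. A listed gene without a match, such as Slc11a2, may therefore still carry one. The protein levels, on which a 5′ element acts, were not measured here. The mRNAs of the iron regulatory proteins themselves, Ireb2 (−0.47, adjusted p = 0.023) and Aco1 (−0.42, adjusted p = 0.022), fell. The call of Ireb2 was lost when any of 5 livers was left out, and that of Aco1 when either of 2 was.

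Among genes of iron uptake, those called were all higher in KO livers. Of 12 listed, Tfrc and Trf included, 11 were tested, 6 rose and none fell, with a median of 0.47. That is 54.5% of those tested, against 22.6% of all genes. Slc39a14, a transporter of iron that is not bound to transferrin, ranged from 204 to 342 CPM in the Het females and from 534 to 856 CPM in the KO females, and from 229 to 380 CPM and 302 to 426 CPM in the males. It rose by 0.79 (SE 0.19, adjusted p = 0.011) over both sexes, with separation in females and overlap in males. Steap3, an endosomal ferrireductase, showed the opposite split, with 14.8 to 16.9 CPM in the Het males, 29.2 to 30.2 CPM in the KO males and overlap in females. It rose by 0.55 (SE 0.10, adjusted p = 0.0034), and the difference between the sexes did not pass (0.76, adjusted p = 0.32). Scara5, a ferritin receptor, was at 0.103 to 0.369 CPM in the Het females and 5.67 to 11.5 CPM in the KO females, and at 2.58 to 28.3 CPM and 19.5 to 35.4 CPM in the males. It rose by 3.06 (SE 0.54, adjusted p = 0.0043). Slc11a2, the proton-coupled iron transporter, differed by −0.10 (interval −0.41 to 0.22, adjusted p = 0.66).

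Of 14 genes for storage, export and sensing, 13 were tested, 2 rose and 3 fell, with a median of 0.00. That is 38.5% of those tested, against 22.6% of all genes. Cp, the ferroxidase ceruloplasmin that acts with ferroportin, ranged from 835 to 1283 CPM in the Het livers and from 1859 to 3997 CPM in the KO livers. It rose by 1.18 (SE 0.16, adjusted p = 5.9e-04) with no overlap, in females (1.27, adjusted p = 0.0075) and in males (1.08, adjusted p = 0.015). Ncoa4, the receptor that delivers ferritin to the lysosome, rose by 0.67 (SE 0.17, adjusted p = 0.017), with 285 to 551 CPM in the KO females against at most 246 CPM in any other liver. Fbxl5, which marks an iron regulatory protein for degradation, did not pass the test.

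Over both sexes the called genes of heme scavenging and breakdown were higher in KO livers, and the called genes of heme synthesis were lower. Of 15 genes of scavenging and breakdown 7 rose and none fell over both sexes, 46.7% against 22.6% of all genes, with a median of 0.16. In females 3 rose and 1 fell, Blvrb (−0.84, adjusted p = 0.027), which is 26.7% against 11.3% of all genes. In males 5 rose and 1 fell, Abcg2 (−0.83, adjusted p = 0.0084), which is 40% against 7.49%. Hp, or haptoglobin, which binds free hemoglobin, ranged from 1155 to 2007 CPM in the Het livers and from 2613 to 3579 CPM in the KO livers, and rose by 0.87 (SE 0.16, adjusted p = 0.0028). Like Hpx it showed no overlap and passed in both sexes (0.89, adjusted p = 0.027, and 0.86, adjusted p = 0.035). Hmox1, which breaks heme down and releases its iron, ranged from 10.04 to 19.3 CPM in the Het females and from 42.4 to 83.8 CPM in the KO females. In the males it ranged from 6.57 to 11.9 CPM and from 10.8 to 16.8 CPM. It rose by 1.45 (SE 0.23, adjusted p = 0.0019) over both sexes, and was lower in males than in females (−1.43, adjusted p = 0.014). The difference between the sexes in the KO effect was −1.31 (adjusted p = 0.47). Of 8 Kupffer cell markers 3 rose, among them Marco, 37.5% against 22.6% of all genes. The summed level of the 8 overlapped, at 97.9 to 264 CPM in the Het livers and 140 to 434 CPM in the KO livers. Its part in the rise of Hmox1, which macrophages express, was not tested. Cd163, the macrophage receptor for hemoglobin and haptoglobin, and Lrp1, the receptor for hemopexin, did not pass the test.

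Of 14 genes of heme synthesis 13 were tested, 5 fell and none rose, with a median of −0.33. That is 38.5% of those tested, against 22.6% of all genes. Alas2, the erythroid form of the first enzyme, was at 107, 92.2 and 94.2 CPM in the Het males and at 22.6, 23.4 and 21.1 CPM in the KO males. In females it was at 19.7, 20.9 and 19.5 CPM in the Het livers and at 5.996, 17.5 and 12.7 CPM in the KO livers. The KO males thus lay just above the Het females, and the Het males stood far above both. Alas2 fell by 1.43 on the log2 scale (SE 0.19, adjusted p = 6.6e-04) over both sexes and by 2.12 in males (adjusted p = 0.0014), while in females the value was −0.73 (adjusted p = 0.10) and the interaction did not pass (−1.40, adjusted p = 0.35). The hemoglobin genes did not pass the test, with Hba-a1 at −0.65 (interval −1.77 to 0.47) and Hbb-bs at −0.51 (interval −1.53 to 0.50). These intervals, over both sexes, include the value of Alas2 over both sexes. Both genes were highest in Het_F_115, at 221 and 247 CPM, where Alas2 was at 20.9 CPM. The lowest were Het_M_125 for Hba-a1 (15.9 CPM) and KO_M_122 for Hbb-bs (34.3 CPM), with Alas2 at 92.2 and 23.4 CPM. The part of erythroid cells in the fall of Alas2 was not tested. Uros (−0.66, adjusted p = 0.0085) and Abcb6, a porphyrin transporter (−0.44, adjusted p = 0.011), fell with no overlap. Alas1, the enzyme of non-erythroid cells, ranged from 224 to 1380.45 CPM in the Het livers and from 145 to 671 CPM in the KO livers and did not pass (−0.76, interval −2.02 to 0.49). Of 19 genes of mitochondrial iron and iron-sulfur clusters 21.1% were called, close to the 22.6% of all genes. The 1 that rose was Slc25a28, a mitochondrial iron importer (0.84, adjusted p = 0.0017). The 3 that fell include Nfu1 (−0.39, adjusted p = 0.0090) and Slc25a37, another such importer (−0.57, adjusted p = 0.022). The call of Slc25a37 was lost with length-scaled counts (adjusted p = 0.066).

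**Figure D5:**
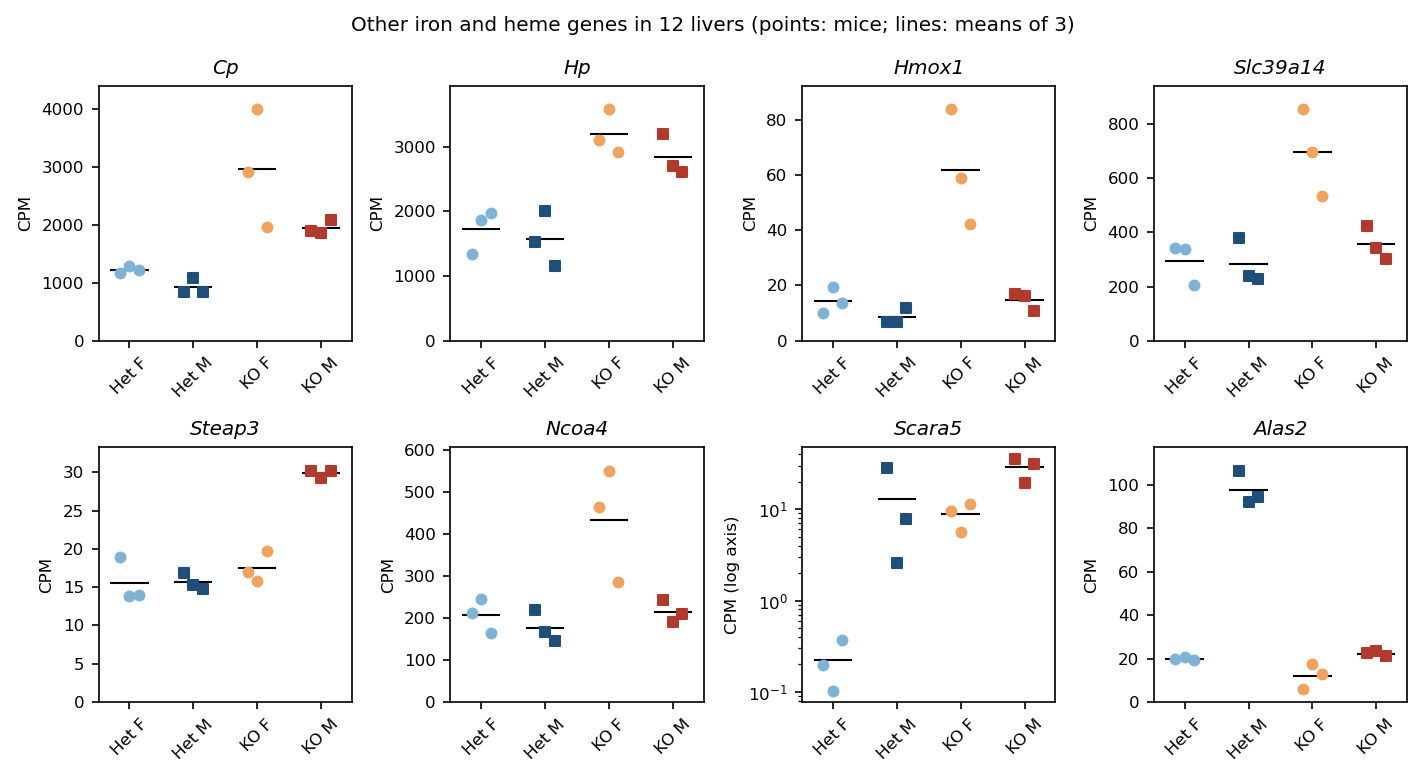
Level in CPM of 8 further iron and heme genes in the 12 livers (log axis for Scara5 only), with circles for females, squares for males and a line at the mean of the 3 mice of each group. Cp and Hp of all KO livers sit above all Het livers, and Alas2 sits between 92.2 and 107 CPM in the Het males against at most 23.4 CPM in every other liver.

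Together 29 of the 117 tested iron genes rose and 16 fell over both sexes, 38.5% of them against 22.6% of all genes. In females 17 rose and 7 fell (20.5% against 11.3% of all genes), and in males 14 rose and 3 fell (14.5% against 7.49%). The lists were chosen with earlier results of these data known, and the shares are not adjusted for expression level. They are given as a description without a test. Between males and females, where 1.05% of all genes were called, 4 of the 117 were called (Scara5 and Alas2 among those higher in males, Hmox1 lower) and none of the 10 members was by edgeR, although 4 members had an unadjusted p under 0.05 (Hamp, Bmp6, Tfrc and Slc40a1) and DESeq2 called 1 (Bmp6). For the interaction of genotype and sex, where 0.0775% of all genes were called, none of the 117 was by edgeR and 18 had an unadjusted p under 0.05, of the members Tfrc alone. DESeq2 called none of the members, so no difference between the sexes in the KO effect described above passed its own test.

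The genes whose levels followed Hamp most closely over the 12 livers, among 13417 genes, were Slc4a7 (Pearson's r = 0.85), Clcn5 (0.84), Mib1 (0.83), Qki (0.81) and Tmem106b (0.80), as a description without a test. Of the members, Slc40a1 (0.56) and Bmp6 (0.47) came nearest, Id1 was at 0.03 and Hpx at −0.39. The points share genotype and sex, which order them in part.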

How the data were processed

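The 12 livers were grouped by genotype and sex from the labels. The authors aligned stranded paired reads with STAR 2.7.9a to GRCm39 and estimated counts per gene with Salmon 1.10.1 on the GENCODE M34 annotation. The deposited estimated counts, of which 12.0% were not whole, were rounded. The deposited TPM values and the length-scaled estimated counts served as alternatives, TPM also for comparing genes. Genes with at least 5 reads, scaled to the median library, in at least 3 livers were kept. Counts were scaled by TMM and fitted with edgeR 4.0.16 in R 4.3.3 (quasi-likelihood F test, robust estimation, prior count of 2, a mean for each group, as in the paper's methods). Benjamini-Hochberg adjustment ran over all tested genes, and intervals are 95%. DESeq2 1.42.0 and limma 3.58.1 were alternatives. The fit was tested on simulated data. Depth limits genes of low count, such as Xpa with 35 reads in 1 KO liver.

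The 10 genes, the 7 iron lists and the 9 marker lists were chosen with earlier results of these data known. Named beside the 10 were a list of regulators, whatever their values, and the 3 called genes of smallest p in each list. Likeness to Hamp was measured on log2 CPM over genes of at least 1 CPM. Genes named outside this rule (Alb, Ttr, Marco, Blvrb, Abcg2, Lrat, Gpnmb, Prtn3, Rn7s1, Rn7s2, Rn7sk and those named as chosen later) were picked after their values were seen. Motifs and iron responsive elements were searched in RefSeq promoters (GRCm38.p6) and in GENCODE M39 transcripts on GRCm39, the authors' build. Columns of no other sample were used (0).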

Additional observations from a re-analysis of the deposited data

Results flagged for a closer look

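Among 20 sets of 6 livers (each of the 10 genes in each genotype), 3 had a liver farther from its nearest neighbour than Dixon's 95% limit allows, and chance gives about 1 in 20. Hamp2 was 70.9 CPM in Het_F_115 against 14.9 CPM in the next Het liver. Hamp2 was also 658 CPM in KO_F_112 against 214 CPM in the next KO liver, itself KO_M_118 and far above the remaining 4. Trf was 28137 CPM in KO_F_112 against 19930 CPM in the next KO liver. KO_F_112 thus stood apart for both genes, and in CPM it also had the highest Tfrc (120 CPM), Hpx (4336 CPM) and Alb (108214 CPM) of the 12 livers. Its TMM factor, 0.888, was the lowest of the 12, which raises its CPM values. In TPM, Hpx was highest in KO_M_136 (2201 TPM), above KO_F_112 (2161 TPM).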

How the results depend on the processing

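No paired analysis was made. Each mouse number occurs once, and the labels do not give litters, so any pairing of littermates was not modelled. Under 10 other settings and without each liver in turn, Hpx and Tfrc kept their call over both sexes, and Trf lost it in the setting without robust estimation only (0.61, adjusted p = 0.084). Leaving out single livers gave 3 to 4 members called over both sexes, 2 in females, 1 in males, 0 to 1 between the sexes and 0 for the interaction, 34 to 46 iron genes and 3190 to 4289 of all genes. In males 2 members were called with scaling by library size only or with DESeq2 (Hpx and Trf). DESeq2 called 4 in females (Tfrc, Fth1, Hpx and Trf) and 1 between the sexes (Bmp6), as did the fit without KO_F_123. The summed hepcidin genes gave −3.3e-04 and −6.6e-04 with limma on log2(TPM + 1) and log2(TPM + 0.1), and from −0.15 to 0.34 without single livers.

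Signs also changed for other values, none of them called. Slc40a1 in males was 0.018 with library size only, 0.040 and 0.043 with TPM, and from −0.22 to 0.22 without single livers, and from −0.043 to 0.18 over both sexes. Hamp2 in females was −0.066 and −0.13 with TPM. Steap4 was 0.010 and 0.013 with TPM. Without single livers the ranges crossed 0 for Hamp in females (−0.26 to 0.074), Hamp2 in females (−3.13 to 4.29) and males (−1.42 to 4.83), Bmp6 in females (−0.66 to 0.17), Id1 in females (−0.11 to 0.56), Ftl1 in females (−0.099 to 0.063), Smad6 (−0.16 to 0.025), Smad7 (−0.013 to 0.36), Id3 (−0.35 to 0.069), Steap4 (−0.20 to 0.17) and Cd163 (−0.068 to 0.31). The cause was not tested.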

Other observations

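Genes whose levels followed Hamp2 over the 12 livers were looked at after its values were seen. The closest were Bbs5 (Pearson's r = 0.84) and Gpi-ps, a processed copy of a glycolysis gene (0.83), followed by Gm10509 (0.79), Gm14419 (0.78) and Zfp383 (0.77). Gpi-ps was at 8.33 CPM in KO_F_112 and 4.07 CPM in KO_M_118, the livers with most Hamp2, and at no more than 1.01 CPM, in Het_F_115, in the others. Gm14419 was at 3.34 to 5.46 CPM in the 3 Het females, KO_F_112 at 3.86 CPM and KO_M_118 at 3.15 CPM, and at no more than 1.13 CPM in the other livers. These are values over 12 livers, with no test.

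Some markers of other liver cells were also called over both sexes, where 22.6% of all genes were. Of 8 stellate cell markers 3 fell (37.5%), among them Lrat, the enzyme of vitamin A storage (−1.90, adjusted p = 2.3e-04). Their summed levels overlapped, at 253 to 516 CPM in the Het livers and 145 to 279 CPM in the KO livers. Of 8 monocyte and macrophage markers 4 rose (50%), led by Gpnmb (3.73, adjusted p = 3.3e-05). The summed level of these 8 monocyte and macrophage markers overlapped widely, at 33.1 to 58.4 CPM in the Het livers and 36.8 to 67.3 CPM in the KO livers. Of 4 neutrophil markers with enough reads 2 rose (50%). The summed level of all 8 was at most 3.03 CPM in a Het liver and at most 12.4 CPM in a KO liver. Prtn3, a serine protease gene, carried most of that difference, at no more than 0.0868 CPM in the Het livers and at 2.62 to 10.8 CPM in the KO livers. Without it the sums were 0.425 to 3.03 CPM and 1.64 to 3.28 CPM. None of the lymphocyte and cholangiocyte markers was called over both sexes by the quasi-likelihood test of edgeR, and 0 had an unadjusted p under 0.05.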
